A study of Mus musculus with 50 samples.

Results

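Hippocampal microglia of mice reared under early-life stress (ELS) were compared with those of control (CTR) mice at postnatal day 9 (P9), the day on which the stress ended. The mice were taken by their titles, which gave 13 P9-ELS and 12 P9-CTR mice, 25 of the 50 mice of the series. All were male C57BL/6J mice without any transgene or injection, and both groups were sorted on the same surface markers (CD45int CD11b+, with dead cells removed by DAPI). P9-ELS litters were kept with limited bedding and nesting material from P2 to P9, whereas P9-CTR litters had standard cages. The stress reaches the pups through their dam, and whole litters were assigned to a condition, so a nest and not a pup is the unit that was exposed. The number before the point in a title was read as the nest. The P9-ELS mice came from 4 nests (numbers 9, 19, 53 and 55, with 3, 3, 4 and 3 mice) and the P9-CTR mice from 5 nests (15, 17, 51, 52 and 58, with 2, 3, 3, 2 and 2 mice). Mice of 1 nest share a dam and may share a day of sorting, and these cannot be told apart.

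Microglia are the resident macrophages of the brain. In the early postnatal hippocampus they still divide, clear dying cells and surplus synapses, and shift from an amoeboid, lysosome-rich state towards the branched homeostatic state of the adult. Limited bedding fragments maternal care and is known to raise glucocorticoids in the pups, and microglia carry the glucocorticoid receptor.

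Total counts ranged from 5152838 to 36031616 reads in P9-ELS and from 13605733 to 31020979 in P9-CTR, and precision is lowest in the shallowest library. 2 mice of ELS nest 19 stood apart. Its mouse 2 had counts in 15731 genes and its mouse 3 in 12482 genes, against 18015 to 21100 genes in the other 23 P9 mice. Results that rest on them are given with and without these 2 mice. All 20 microglia markers were detected, with summed levels of 75293 to 100800 CPM (counts scaled to library size) in P9-ELS and 59260 to 89913 CPM in P9-CTR. Monocyte markers summed to at most 14.6 CPM in any P9 mouse, with 4 of 10 at 0 in all 25 mice. Neutrophil markers summed to at most 30.9 CPM, which was the highest level of Cxcr2 alone. Markers of border macrophages summed to 656 to 1221 CPM, with Mrc1 at 461 to 910 CPM. Lymphocyte markers summed to 108 to 177 CPM apart from 428 and 201 CPM in mice 2 and 3 of ELS nest 19. Only 1 of the 10 lymphocyte markers was tested, Cd79b, at 108 to 428 CPM, and 4 were at 0 in all 25 mice. The lymphocyte sum thus describes Cd79b and not lymphocyte content. Xist stayed at or below 1.06 CPM in every P9 mouse, whereas Eif2s3y, a Y-linked gene, was detected in 25 of 25.

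No gene passed the thresholds between P9-ELS and P9-CTR. With edgeR's quasi-likelihood test, 0 of 16696 genes (0%) had both a log2 fold change (logFC) beyond 1 in either direction and an adjusted p below 0.05, and the smallest adjusted p was 0.382. No gene reached the adjusted p alone either. DESeq2 also gave 0 genes, and edgeR's likelihood-ratio test gave 1 gene, Trem1. Summing the counts of each nest, so that 4 ELS nests met 5 CTR nests, again gave 0 genes with the quasi-likelihood test, 2 with the likelihood-ratio test and 3 with DESeq2, all lower in ELS. In the 13 and 12 mice, no gene was separated without overlap, and in nest means 236 of 16696 genes (1.41%) were, 93 of them higher and 143 lower in ELS.

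Before adjustment, 914 genes had a p below 0.05, 554 higher (3.32% of those tested) and 360 lower (2.16%) in ELS. Leaving out the 2 mice, the counts were 336 higher (2.01%) and 355 lower (2.13%) of 16696 genes. The split also turned with limma-voom and the nest as random effect, which gave 183 higher and 826 lower genes.

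The data bound the size of differences more closely for abundant genes. In a limma fit on the 9 nest means of log2 CPM, the 95% interval of ELS minus CTR lay within a 2-fold difference for 9349 of 16683 genes (56.0%). Among the 8507 genes with a mean log2 CPM of at least 3, it did so for 7879 (92.6%), and for 5416 of them (63.7%) it lay within a 1.5-fold difference. The median half-width of the interval was 0.39 on the log2 scale for these genes and 1.01 for the less abundant ones.

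Genes of lowest p among those with a mean log2 CPM of at least 3 are described here by their levels, and none passed the test. Zcchc14, a zinc finger gene, had lowest, median and highest levels of 4.63, 8.93 and 15.4 CPM in the 13 P9-ELS mice and 7.72, 14.6 and 21.4 CPM in the 12 P9-CTR mice. The ranges overlapped, and the logFC was -0.61 ± 0.16 (SE, adjusted p = 0.722, edgeR) with all mice and -0.65 without the 2.

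Cd72 encodes an inhibitory co-receptor of immune cells. It ranged from 7.63 to 18.6 CPM in P9-ELS, and from 13.2 to 24.4 CPM in P9-CTR. The groups overlapped and the logFC was -0.50 ± 0.16 (SE, adjusted p = 0.858, edgeR). The interval from nest means ran from -0.88 to -0.12.

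Other genes of this set that were lower in ELS were Exosc10 (a nuclease of the nuclear exosome, logFC -0.40), Ccnl2 (a cyclin of splicing speckles, -0.60), Ddx42 (a helicase linked to the U2 snRNP, -0.41), Zcchc7 (a partner of nuclear RNA decay, -0.70) and the small-nucleolar-RNA host gene Gas5 (-0.55). Ivns1abp (-0.44) and the long non-coding Gm10138 (-0.41) were also among them. Gm10138 and Ivns1abp overlap on opposite strands, and the strand setting of the counting is not given in the sources used here, so their reads may not be separate.

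Of the abundant genes that were higher in ELS, Oaz1 encodes the antizyme that limits polyamine synthesis. It ranged from 499.9 to 1085 CPM with a median of 692 in P9-ELS, and from 425 to 707 CPM with a median of 545 in P9-CTR. The 2 highest P9-ELS values, 1085 and 1011 CPM, belonged to mice 2 and 3 of nest 19, and the logFC moved from 0.38 ± 0.11 (SE, adjusted p = 0.858, edgeR) to 0.25 without them. Ppia, the cyclophilin A gene, went from a logFC of 0.39 to 0.24, with a highest value of 2204 CPM in mouse 2 of nest 19. Ppia has many processed pseudogenes, with which its reads may be shared.

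Arf4, a GTPase of the Golgi apparatus, was the gene of this set least altered by leaving those mice out. It lay between 252 and 360 CPM in P9-ELS and between 219 and 312 CPM in P9-CTR, with overlap, at a logFC of 0.22 ± 0.06 (SE) with all mice and 0.23 without the 2. The remaining 7 were Gm10282 (0.81), Gm19719 (0.45), Scpep1os (0.37), the ubiquitin-like membrane protein gene Tmub1 (0.52), the lysosomal membrane protein gene Laptm4b (0.40), Tmem128 (0.44) and the zinc finger gene Zfp729b (0.61). All 19 genes of the set kept an unadjusted p under 0.05 without the 2 mice. With the counts summed per nest 14 of 19 had one, and for 12 of 19 the interval from nest means excluded 0. The set was chosen by its p in these same mice, so these counts are no independent support. Over all 16683 genes, nest sums gave 315 higher and 387 lower at that p. The interval excluded 0 for 64 higher and 911 lower genes.

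**Figure D1:**
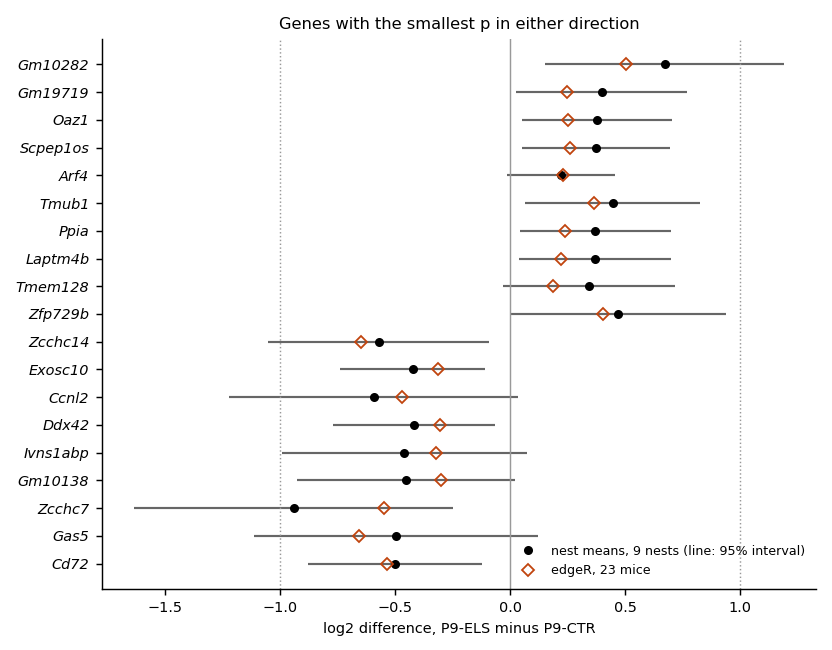
Differences of P9-ELS from P9-CTR on the log2 scale for 19 genes with the smallest p in either direction among those with a mean log2 CPM of at least 3. Black points and lines are differences of nest means with 95% intervals (9 nests), open diamonds are edgeR logFC in 23 mice, and dotted lines mark a 2-fold difference. 12 of 19 intervals exclude 0, and all diamonds lie on the same side as their points.

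Among rare genes, Trem1, the myeloid receptor that amplifies inflammatory signalling, was called by the likelihood-ratio test alone. It was at 0 in all 12 P9-CTR mice and in 10 of 13 P9-ELS mice. The reads came from 2 mice of nest 55, at 1.49 and 1.32 CPM, and from 1 mouse of nest 9 at 0.34 CPM, with at most 31 reads in a mouse. Chac1, a glutathione-degrading enzyme induced by the integrated stress response, was lower in ELS with a highest level of 0.28 CPM in P9-ELS and 1.61 CPM in P9-CTR (adjusted p = 0.382, edgeR). At most 26 reads of Chac1 were counted in any of these mice.

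Gene families are described by their counts and medians, with no test over a family. The median logFC over all genes was 0.00. Over the 8507 genes with a mean log2 CPM of at least 3 it was 0.03, with 5008 above 0. The cytosolic ribosomal proteins, which build the ribosome, had the largest median among the families with over 30 members tested, at 0.22, and 80 of 83 members were above 0. 28 of 83 were higher at an unadjusted p under 0.05 and 0 lower, against 3.32% higher over all genes. Of the 8507 abundant genes, 415 were higher and 144 lower at that p. Without mice 2 and 3 of ELS nest 19, the median was 0.12, with 69 of 83 above 0 and 5 at that p. With all mice it was 0.41 in nests numbered under 20 and 0.09 in nests over 50. By nest, the mean log2 CPM of the members was 7.32 to 7.67 in ELS and 7.02 to 7.59 in CTR, with overlap. Rplp0, a protein of the ribosomal stalk, ranged from 1004 to 1910 CPM with a median of 1380 in P9-ELS and from 678 to 1606 CPM with a median of 1011 in P9-CTR. These ranges overlapped, and the logFC was 0.30 ± 0.11 (SE, adjusted p = 0.875, edgeR). Ribosomal protein genes have many pseudogene copies, so single members are uncertain.

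The nuclear-encoded mitochondrial families had positive medians that were near 0 without the same 2 mice. Nuclear genes of oxidative phosphorylation had a median of 0.20, with 74 of 76 above 0 and 12 at an unadjusted p under 0.05. Without the 2 mice the median was 0.01, with 43 of 76 above 0 and 1 at that p. Mitochondrial ribosomal proteins went from a median of 0.16 with 10 of 77 to 0.00 with 0 of 77. The 10 mitochondrially encoded genes tested did not move this way. Their median was 0.09 with 9 above 0, and 0.12 with 7 above 0 without the 2 mice. Ndufa12, a subunit of complex I, was at 570 CPM in mouse 2 of nest 19 and at 55.5 to 83.2 CPM in the P9-CTR mice. Its logFC was 0.67 with all mice and 0.09 without the 2. Ubb, a polyubiquitin gene, reached 4932 CPM in the same mouse, against 739 to 1049 CPM in P9-CTR, and its logFC moved from 0.51 to 0.10. Ubiquitin-dependent catabolism as a whole had 7 of 62 members higher and 1 lower, and 3 higher and 0 lower without those mice.

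The 21 homeostatic genes had a median logFC of 0.03, with 2 higher and 0 lower at an unadjusted p under 0.05, and the interval from nest means lay within 2-fold for 20 of 21. Without the 2 mice the median was 0.07, with 1 higher and 0 lower. P2ry12, the purinergic receptor that steers process movement, had mean levels of 9278 CPM in P9-ELS and 8420 CPM in P9-CTR (logFC 0.14). Its lowest and highest P9-ELS values, 4321 and 20369 CPM, were those of mice 3 and 2 of nest 19. The microglia growth factor receptor gene Csf1r had means of 8395 CPM in P9-ELS and 8331 CPM in P9-CTR (logFC 0.01), with 630 CPM in mouse 2 of nest 19 and 3533 to 11025 CPM in P9-CTR. Genes of the neonatal amoeboid and disease-associated state had a median of 0.13 and 0.07 without the 2 mice, with 1 of 26 and 0 of 26 at that p. Apoe, which carries lipids, had means of 7939 and 8039 CPM.

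Stress-hormone genes showed no shared direction. Of 25 glucocorticoid receptor targets and partners, 1 was higher and 1 lower at an unadjusted p under 0.05, and the median was -0.03. Leaving out the 2 mice, 1 was higher and 2 lower. The 1 that was higher was Bcl6, a transcriptional repressor, at 3.17 to 7.38 CPM in P9-ELS and 2.13 to 6.53 CPM in P9-CTR (logFC 0.57 ± 0.17, SE, adjusted p = 0.858, edgeR). Tsc22d1, a leucine-zipper regulator, was the lower one (logFC -0.39). Sgk1, a kinase induced by glucocorticoids, had means of 207 CPM in P9-ELS and 232 CPM in P9-CTR (logFC -0.16). The chaperone genes had a median of 0.09, and 0.01 without the 2 mice.

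Among immune families, interferon-stimulated genes had the most members with an unadjusted p under 0.05. Of these, 6 of 32 were higher and 0 lower at an unadjusted p under 0.05 (median 0.14), and without the 2 mice 1 of 32 was higher (median 0.07). Over all genes tested the shares were 3.32% higher and 2.16% lower, and 2.01% and 2.13% without the 2 mice, against which the counts of each family are to be read. Ifit3, an antiviral gene induced by interferon, was that 1 gene, at 2.84 to 14.8 CPM with a median of 7.48 in P9-ELS and 1.65 to 7.97 CPM with a median of 4.68 in P9-CTR. The groups overlapped, with a logFC of 0.74 ± 0.25 (SE, adjusted p = 0.863, edgeR). Cytokines and chemokines had 3 higher and 1 lower of 28, all 4 with mean levels under 6 CPM, and 2 higher and 1 lower without the 2 mice. Complement genes had 2 higher of 18 and 1 without those mice, while the C1q genes that tag synapses had logFC of 0.01 (C1qa), 0.04 (C1qb) and -0.15 (C1qc). Among the NF-kB subunits and inhibitors 0 were higher and 2 lower of 24, namely Relb (logFC -0.73) and Bcl3 (logFC -1.35), both with mean levels under 8 CPM, and 1 lower without those mice.

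Of the genes of cell division, an unadjusted p under 0.05 was reached by 3 of 40 for DNA replication and S phase, all higher, and by 0 of 50 for mitosis. In the 23 other mice it was reached by 0 of 40 and 0 of 50, and the median of the S-phase genes was 0.01 instead of 0.03. Pcna, the replication clamp, had means of 146 CPM in P9-ELS and 120 CPM in P9-CTR (logFC 0.28, and 0.14 without the 2 mice), with a highest value of 316 CPM in mouse 2 of nest 19. The 19 circadian clock genes had the lowest median of the families, -0.22, with 0 higher and 1 lower, Nr1d1, which encodes the clock repressor REV-ERB alpha (logFC -0.82). Without the 2 mice the median of the clock genes was -0.16, with 0 higher and 2 lower.

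**Figure D2:**
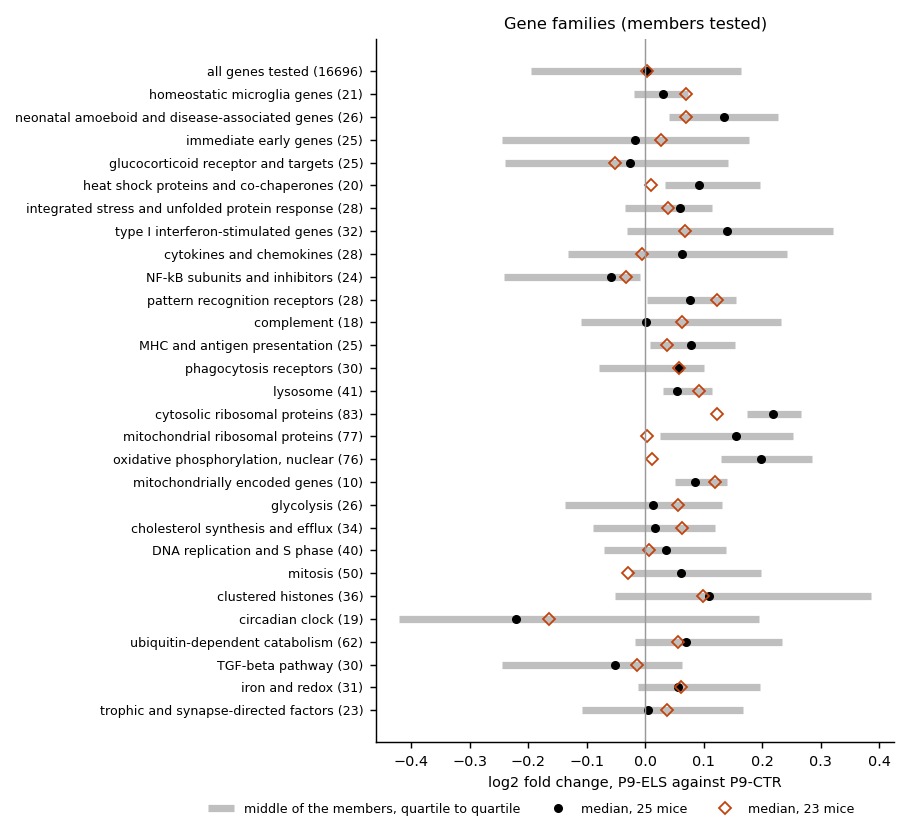
Median logFC of P9-ELS against P9-CTR for 28 gene families and all genes tested, with the number of members tested in parentheses. Black points are medians in 25 mice, grey bars run from the lower to the upper quartile of the members, and open diamonds are medians in 23 mice without mice 2 and 3 of ELS nest 19. The ribosomal and oxidative phosphorylation medians of 0.22 and 0.20 move to 0.12 and 0.01.

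Markers of neurons and astrocytes were low in all mice, with lower medians in ELS. Neuronal markers summed to 99.7 to 289 CPM with a median of 191 in P9-ELS and to 151 to 377 CPM (median 270) in P9-CTR, and 0 of 18 had a logFC above 0 (median -0.59). Without the 2 mice 1 of 18 did (median -0.52). At an unadjusted p under 0.05 there was 1 lower gene, Syt1, the calcium sensor of synaptic vesicles, which ranged from 4.92 to 15.8 CPM in P9-ELS and from 7.58 to 35.8 CPM in P9-CTR. Astrocyte markers had 0 of 12 above 0 (median -0.37), and without the 2 mice 1 of 12 (median -0.29). They summed to 140 to 430 CPM in P9-ELS and 206 to 493 CPM in P9-CTR. In each case the groups overlapped. The astrocyte median was -1.06 in nests under 20 and 0.02 in nests over 50, and the neuronal one -0.84 and -0.31. Markers of endothelium and mural cells had a median of -0.71 (2 of 8 above 0) and -0.49 without the 2 mice, and oligodendrocyte markers -0.26 (2 of 10 above 0) and -0.05. In sorted pools of this kind, fewer cells of a type and less RNA per cell cannot be told apart, and the part of these transcripts in other results was not tested.

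Which nest a mouse came from was then compared with its condition. Over the 8507 abundant genes, the condition held a median of 2.19% of the variation in log2 CPM, nests within a condition 31.6% and mice within a nest 64.0%. The shares of the degrees of freedom, which data without structure would follow on average, were 4.17%, 29.2% and 66.7%. In the 23 other mice condition, nests and mice held 3.10%, 44.2% and 50.2%, against shares of 4.55%, 31.8% and 63.6%. These shares are averages, whereas the values beside them are medians over genes. For the condition, with 1 degree of freedom, the median of data without structure lies below the average. The medians for the condition are thus not to be read as below data without structure. Pairs of mice from the same nest had a median correlation of 0.19 across these genes after centring each gene (24 pairs), against -0.05 for other nests of the same condition (120 pairs) and -0.02 across conditions (156 pairs). These correlations are over genes that are not independent, and pairs share mice.

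**Figure D3:**
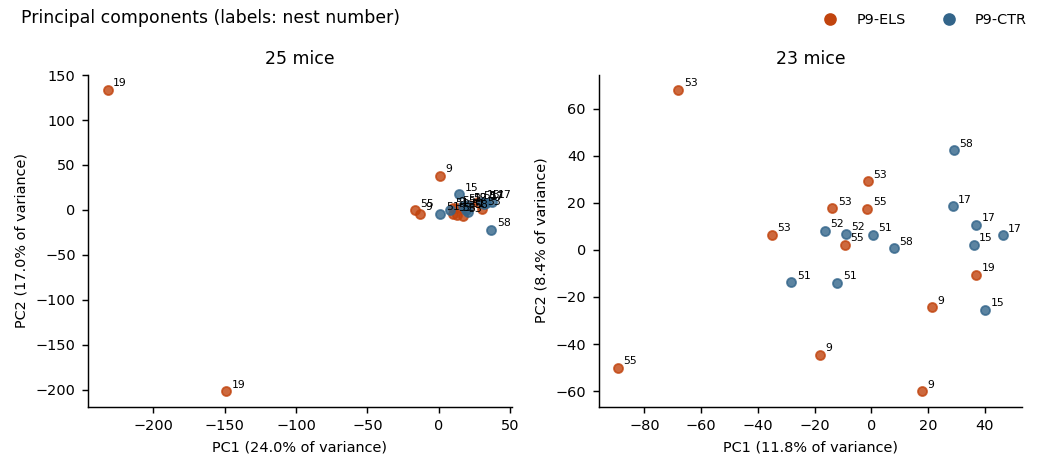
The first 2 principal components of log2 CPM, with all 25 P9 mice (left) and without mice 2 and 3 of ELS nest 19 (right). Each point is a mouse, labelled by its nest and coloured by condition, and the axes give the percentage of variance. The first component, 24.0% of the variance, runs to the 2 mice of nest 19, and without them it holds 11.8%.

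The first component of all 25 mice differed between the condition means of nests at an exact permutation p of 0.0159 over all assignments of nests to conditions (two-sided), which became 0.0635 after adjustment over 4 components. Without mice 2 and 3 of ELS nest 19 that p was 0.365 (0.595 adjusted). No component reached an adjusted p under 0.05 in either set.

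Nests of the same condition did differ. In edgeR's quasi-likelihood test, 32 of 16683 genes (0.192%) differed between nests of a condition. Without the 2 mice the number was 860 (5.15%), which included all 32 genes, and without CTR nest 58 as well it was 302 (1.81%), with 145 genes between the other CTR nests and 160 between ELS nests. Of the 83 cytosolic ribosomal proteins, 51 differed between nests without the 2 mice and 35 without nest 58 as well. Of 41 lysosomal genes it was 18 and 4. Of the 10 mitochondrially encoded genes tested, it was 6 and 6.

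A first pattern belonged to CTR nest 58, whose 2 mice lay above all 23 others for the following genes. Srsf5, a serine/arginine-rich splicing factor, was at 546 and 665 CPM in these mice and at 106 to 369 CPM in the other 23 (adjusted p between nests = 0.00487, edgeR). Clk1, the kinase that phosphorylates such factors, was at 255 and 327 CPM against 50.9 to 169 CPM (adjusted p = 0.0221, edgeR). Rsrp1, a nuclear arginine/serine-rich protein, was at 673 and 1144 CPM against 101 to 587 CPM. The same separation held for Ivns1abp (1087 and 1155 against 238 to 614 CPM), which encodes a protein that binds the influenza NS1 protein, and for Ccnl2 (199.6 and 217 against 27.6 to 108 CPM). Nxf1, the mRNA export receptor, stood at 141 and 144 against 49.7 to 109 CPM. Zcchc7 was at 41.7 and 48.3 against 1.08 to 38.7 CPM. Ccnl2, Ivns1abp and Zcchc7 are also among the genes of lowest p named above for ELS. Without nest 58 and the 2 mice the logFC of Gas5, which stood at 134 and 195 CPM in nest 58 and at 36.7 to 106 CPM in the other 23 mice, was -0.27. In those mice the logFC was -0.15 for Ccnl2, -0.07 for Ivns1abp and -0.16 for Gm10138, with unadjusted p of 0.220, 0.405 and 0.132 (edgeR). In nests under 20, Gm10138 lay between 12.9 and 29.7 CPM in P9-ELS and between 34.3 and 40.7 CPM in P9-CTR, without overlap. Nest 58 and its genes were singled out after their values were seen.

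A second pattern followed the nest numbers, which form 2 ranges, under 20 (ELS 9 and 19, CTR 15 and 17) and over 50 (ELS 53 and 55, CTR 51, 52 and 58). The labels do not say what the ranges stand for. With condition in the model, 76 of 16683 genes (0.456%) differed between ranges, 54 higher and 22 lower over 50, and without the 2 mice 599 (3.59%), 301 higher and 298 lower. A range belongs to whole nests, whereas this test takes littermates as separate samples, and with counts summed per nest 3 genes were called. Total counts also differed, with medians of 27118334 reads in CTR under 20 and 15800888 in CTR over 50, and of 19209722 in ELS under 20 and 22359748 in ELS over 50. The order was thus opposite in the 2 conditions, and the part of depth in these genes was not tested.

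Mki67, the proliferation marker, was at 129 to 353 CPM in the 11 mice of nests under 20 and at 62.2 to 150 CPM in the 12 mice of nests 51, 52, 53 and 55. Nest 58 lay with the former, at 285 and 299 CPM. Siglech, a sialic-acid-binding receptor of microglia, was at 983 to 1196 CPM under 20, at 549 to 869 CPM in those 12 mice and at 966 and 1155 CPM in nest 58. mt-Co1, the mitochondrial gene for a cytochrome c oxidase subunit, ran the other way, with 706 to 1451 CPM under 20, 1730 to 2691 CPM in the 12 mice and 919 and 1221 CPM in nest 58. The adjusted p between ranges was 0.0212 for Mki67, 0.00443 for Siglech and 0.0119 for mt-Co1 (edgeR). In none of the 3 genes did the 12 mice overlap nest 58, and only Mki67 overlapped the mice under 20. Most genes called between ranges placed nest 58 differently from these 3. With 25 mice, nest 58 was nearer the other nests of its own range for 58 of 76 genes. It was nearer the nests under 20 for 18. With 23 mice, the numbers were 370 and 229 of 599 genes. Nest 58 was counted in its own range when these genes were called. 9930111J21Rik2, the gene with the smallest p between nests, has a near-identical neighbour and its counts are uncertain.

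**Figure D4:**
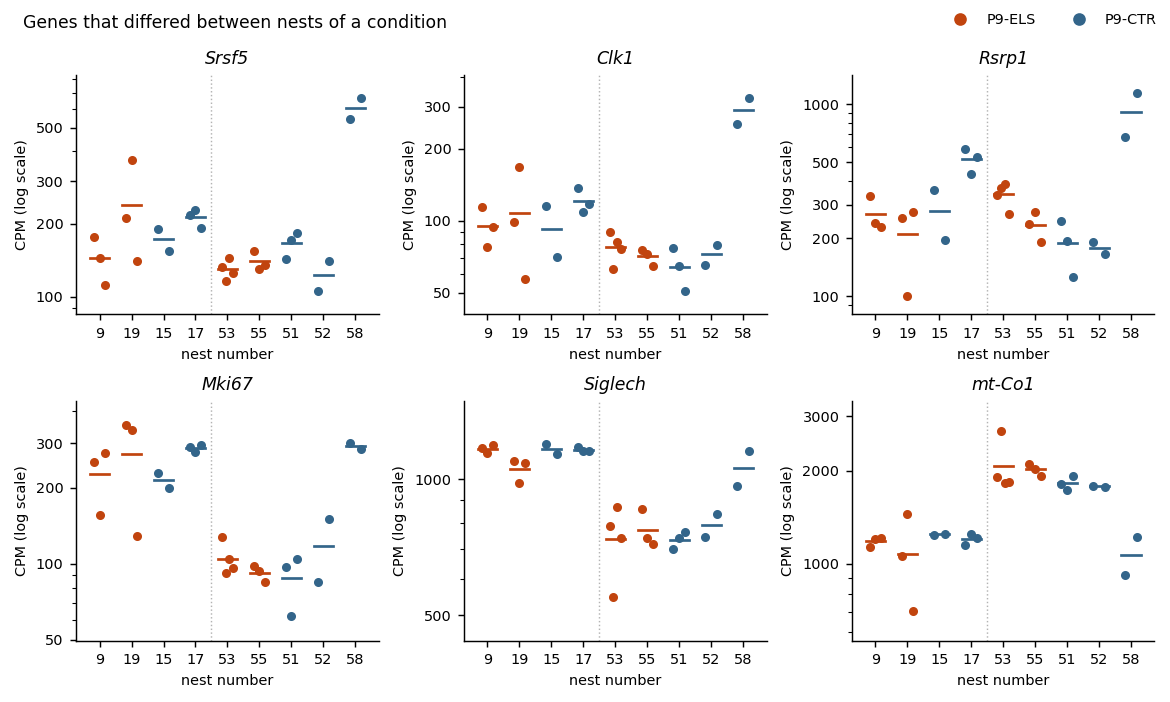
Levels in CPM (log axis) of 6 genes that differed between nests, one point per mouse, with a bar at the mean of each nest and the nest number on the horizontal axis. Nests left of the dotted line are numbered under 20 and those right of it over 50. Srsf5, Clk1 and Rsrp1 are highest in both mice of CTR nest 58, while for Mki67, Siglech and mt-Co1 nest 58 lies beside the nests under 20 and apart from the other nests over 50, with overlap between the latter and the nests under 20 for Mki67.

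Mt1 was the gene whose ELS difference depended on the range of nest numbers, 1 of 16683 genes (0.00599%). Mt1 and its neighbour Mt2 encode metallothioneins, small zinc- and copper-binding proteins that are induced by metals, oxidative stress and glucocorticoids. Mt1 is at chr8:94905710-94906955 on the plus strand and Mt2 at chr8:94898819-94900207, also plus (GRCm39, GENCODE annotation). Their RefSeq promoters, 250 bases before to 50 bases after the start (GRCm38.p6, plus strand, chr8:94178839-94179138 for Mt1 and chr8:94172368-94172667 for Mt2), are shown because Mt1 carries this result and Mt2 is its neighbour and family member, with matches to the core of the metal response element (TGCACNC or TGCGCNC, either strand) in capitals.
Mt1: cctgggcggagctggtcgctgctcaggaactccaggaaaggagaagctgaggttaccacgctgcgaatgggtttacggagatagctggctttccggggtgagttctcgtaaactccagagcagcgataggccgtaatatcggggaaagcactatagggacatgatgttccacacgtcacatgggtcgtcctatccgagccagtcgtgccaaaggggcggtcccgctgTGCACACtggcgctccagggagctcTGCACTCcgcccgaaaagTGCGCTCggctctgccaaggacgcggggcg
Mt2: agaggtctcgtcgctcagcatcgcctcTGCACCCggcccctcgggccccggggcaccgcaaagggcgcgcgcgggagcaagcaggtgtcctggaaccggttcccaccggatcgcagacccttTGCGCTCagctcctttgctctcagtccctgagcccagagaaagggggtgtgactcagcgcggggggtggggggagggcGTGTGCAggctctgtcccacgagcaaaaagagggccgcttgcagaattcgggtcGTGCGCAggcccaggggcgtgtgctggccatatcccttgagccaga
Mt1 has 3 matches and Mt2 has 4. At least 1 match was found in 25.7% of the 32851 promoters of this length, at least 3 in 1.97% and at least 4 in 0.517%. A match describes the sequence and does not show binding.

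In nests under 20, Mt1 was higher in ELS. Its lowest, median and highest levels were 104, 121 and 246 CPM in the 6 P9-ELS mice and 62.3, 64.9 and 92.5 CPM in the 5 P9-CTR mice, without overlap (logFC 1.01 ± 0.21, SE). In nests over 50 the order was the opposite. The 7 P9-ELS mice had 50.3, 67.9 and 71.3 CPM and the 7 P9-CTR mice 85.0, 98.3 and 136 CPM, again without overlap (logFC -0.70 ± 0.18, SE). The difference between the 2 logFC was -1.71 ± 0.27 (SE, adjusted p = 0.0169, edgeR), and 0.00761 was the adjusted p without mice 2 and 3 of ELS nest 19. Over all 25 mice the ranges of Mt1 overlapped and the logFC was 0.17 ± 0.22. With counts summed per nest, 4 ELS and 5 CTR nests, no gene was called for such a difference, and 1460 genes had an unadjusted p under 0.05 over mice.

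Mt2 had the same order of medians at a much lower level. In nests under 20 the medians were 8.27 CPM in P9-ELS and 5.28 CPM in P9-CTR, and over 50 they were 5.08 CPM in P9-ELS and 7.62 CPM in P9-CTR, with overlap in both ranges. The difference between its 2 logFC was -1.26 ± 0.38 (SE, adjusted p = 0.492, edgeR). Without the 2 mice a second gene passed, Hspa8, the constitutive heat shock cognate protein (adjusted p = 0.0276, edgeR). With all 25 mice its adjusted p was 0.523 (edgeR). In nests under 20 Hspa8 lay between 1585 and 3444 CPM in P9-ELS and between 2083 and 2517 CPM in P9-CTR, with overlap. In nests over 50 it lay between 2357 and 2974 CPM in P9-ELS and between 1607 and 2183 CPM in P9-CTR.

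**Figure D5:**
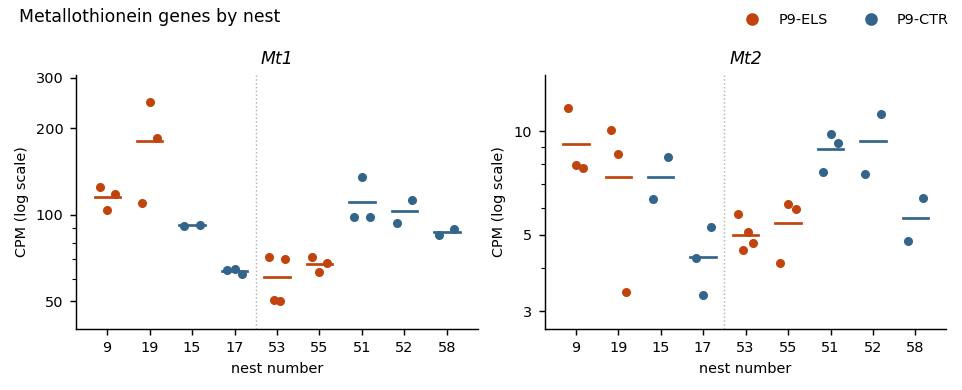
Mt1 and Mt2 levels in CPM (log axis) by nest, one point per mouse, with a bar at the mean of each nest. Nests left of the dotted line are numbered under 20. Mt1 is higher in ELS nests than in CTR nests on the left (104 to 246 against 62.3 to 92.5 CPM) and lower on the right (50.3 to 71.3 against 85.0 to 136 CPM).

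Finally, the ELS difference at P9 was set beside that in adults. The comparison used the 6 ELS and 7 CTR mice of the series that were injected with PBS at P200, which are other animals than the P9 mice. Adult tissue also passed a Percoll gradient before the sort and P9 tissue did not, so age and isolation cannot be told apart. 1 adult CTR mouse stood apart, with counts in 12854 genes against 16485 or more in the other 12 adults. In these adults 26 of 16696 genes (0.156%) passed the thresholds, and without that mouse 1 gene did, so the values that follow rest on it. Of the 19 that were higher in adult ELS, 14 had a logFC above 0 at P9 (median 0.09, range -0.49 to 0.42), and of the 7 that were lower, 5 were below 0 (median -0.24). None of the 26 reached an unadjusted p under 0.05 at P9, against 3.32% higher and 2.16% lower over all genes. Of all 16696 genes, 8429 had a logFC above 0 at P9 and 8254 below 0. Whether the 26 genes depart from these shares was not tested. Crtap, a collagen-modifying protein, had an adult logFC of 2.31 and 0.42 at P9. Plbd2, a lysosomal phospholipase B-like protein, had 1.72 and 0.16. Gfap, the astrocyte filament gene, had -3.58 and -0.34.

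For 5 of 16696 genes (0.0299%) the difference itself differed between ages, and all 5 were higher in adult ELS than CTR with no such excess at P9. Ddit4, a stress- and glucocorticoid-induced inhibitor of mTOR signalling, was the only 1 of them with counts in all 25 P9 mice. At P9 it ranged from 0.20 to 9.32 CPM in ELS and from 2.33 to 10.4 CPM in CTR (logFC -0.20 ± 0.40, SE). In adults it ranged from 5.71 to 388 CPM with a median of 25.3 in ELS and from 5.56 to 18.0 CPM with a median of 7.14 in CTR. The logFC at P9 minus that in adults was -3.60 ± 0.69 (SE, adjusted p = 0.0324, edgeR). The other 4 (Slc10a6, Plet1, Vwa5b2 and Gm29927) were at 0 in at least 8 of 13 P9-ELS mice and had at most 38 reads in any P9 mouse, so their fitted differences are imprecise. At P9 their fitted logFC ran from -4.29 (Gm29927) to -2.68 (Vwa5b2). Without mice 2 and 3 of ELS nest 19, Ddit4 and Plet1 were called, and without the adult mouse that stood apart none of the 5 was, with adjusted p of 0.0834 and a difference of -3.52 for Ddit4 (edgeR).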

How the data were processed

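RNA of sorted hippocampal microglia was sequenced per mouse after poly(A) selection by low-input cDNA amplification. Per the study's methods and processing notes, the authors demultiplexed with bcl2fastq 2.20, trimmed with cutadapt 2.10, aligned with STAR to GRCm39 and counted uniquely aligned exonic reads per gene with HTSeq 0.11.0. The deposited values are raw counts for 53700 genes per mouse. The annotation release and strand setting are not given in the sources used here. Amplified reads are not independent molecules.

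Counts were analysed in R 4.3.3 with edgeR 4.0.16 (TMM, quasi-likelihood test, Benjamini-Hochberg adjustment). A gene was tested if it exceeded 1 CPM in more than 2 mice of the 50, with all 6 groups of the series in the fit for condition and the 25 P9 mice alone for nests. DEGs needed an adjusted p under 0.05 and an absolute logFC above 1. An adjusted p under 0.05 alone was needed for nests, nest number ranges and differences of logFC. Total counts of the P9 mice were 5152838 to 36031616. Intervals came from limma 3.58.1 on nest means of log2 CPM (prior count 2). No 2 libraries of a group agreed within sampling noise. P-values over mice treat littermates as separate samples, and summed nest counts do not. Procedures were tested on simulated data. For the comparison of conditions the simulated mice had no nest effects, so the behaviour of that test with littermates was not examined.

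Named genes are the 10 smallest p in each direction (mean log2 CPM of at least 3), the 10 smallest p between nests, the 3 most abundant members and the 2 of smallest p in each of 39 lists, Trem1, and the genes called in adults or between ages. From these a selection is printed, and 2 genes are not reported here. Members and lists were chosen with earlier results of these data known. Of 1170 list genes, 1169 matched the files. Alternatives were the likelihood-ratio and robust tests, DESeq2 1.42.0 and its size factors, limma-voom, other filters on low counts, the range of nest numbers as a covariate, leaving out each nest, summed nests, and the P9 or adult PBS mice with under 16000 genes detected left out.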

Additional observations from a re-analysis of the deposited data

Results flagged for a closer look

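The ELS difference of Mt1, a metallothionein gene, was of opposite sign in the 2 ranges of nest numbers, with a difference between logFC of -1.71 (over 50 minus under 20), tested as an interaction. The ELS difference also differed between P9 and PBS-injected adults for 5 genes, by the same kind of test. The logFC at P9 minus that in adults was -3.60 for Ddit4, the mTOR inhibitor gene. It was -7.96 for Slc10a6, -7.23 for Plet1, -8.48 for Vwa5b2 and -8.27 for Gm29927, which had at most 38 reads in any P9 mouse. Without mice 2 and 3 of ELS nest 19, 2 genes were called between the ages, and without the adult CTR mouse with 12854 genes detected 0 were.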

How the results depend on the processing

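No paired analysis was possible because no P9-ELS mouse shares a nest and number with a P9-CTR mouse. The 0 DEGs of ELS against CTR at P9 stayed 0 in every alternative except the likelihood-ratio test, which gave 1. Leaving out each nest gave 0 to 0. With summed nests, the likelihood-ratio test gave 2 and DESeq2 3. The 914 genes with an unadjusted p under 0.05 became 4060 of 36192 with no filter, 393 without the 2 mice and nest 58, and 569 (without nest 17) to 1372 (without nest 9) on leaving out a nest. The 32 genes between nests became 640 with the likelihood-ratio test, 1066 with DESeq2, 805 with no filter, 860 without the 2 mice and 302 without nest 58 as well. They ranged from 2 (without nest 53) to 996 (without nest 19), with 11 without nest 9, 9 without 17, 5 without 51, 12 without 52, 8 without 55 and 4 without 58. The 76 genes between nest number ranges became 599 without the 2 mice and 3 with summed nests. The 1 gene whose ELS difference depended on the range became 2 without the 2 mice and 0 with summed nests. The 5 genes between P9 and adults became 29 with the likelihood-ratio test, 20 with DESeq2, 2 without the 2 mice and 0 without the adult CTR mouse with 12854 genes detected. Without that mouse the 26 adult DEGs became 1. The causes were not tested. Of 468 list medians recomputed, 463 moved by less than 1 SD of nests and 419 kept their sign. Taken by list, only 21 of 39 kept their sign in every alternative. The fits without that adult mouse, without the 2 mice together with nest 58, and without the 2 mice for the range difference, were chosen after seeing the data. Depth limits rare genes most, and with 4 and 5 nests small differences were not detectable.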
